A study of Mus musculus with 6 samples.

Results

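The secreted class 3 semaphorins, their neuropilin receptors and plexin D1 were examined in mesenchymal cells of the fetal mouse liver at 2 stages of late gestation. The set holds 10 genes of the 54532 in the deposited table, taken by symbol: the 7 ligand genes Sema3a to Sema3g and the 3 receptor genes Nrp1, Nrp2 and Plxnd1. All 10 were found. The cells came from livers of CD-1 mice of genotype Sm22-Cre/ROSA26RYFP, in which Cre recombinase under the Sm22 (Tagln) promoter, active in smooth muscle and related mesenchyme, switches on a lasting eYFP reporter. Livers were dissociated with collagenase IV and Dispase and eYFP-positive cells were sorted, so cells that once expressed Sm22 and their descendants are included, whatever they express at sampling. Embryonic day 16 (E16) and embryonic day 18 (E18) had 3 libraries each, lettered A, B and C on each day; where 3 values of a day are listed below, they follow that order. No other genotype, untreated control or unsorted fraction was analysed here. Whether a day's libraries stem from different litters, embryos or pools is not told by the labels, so p-values measure library-to-library spread, part of which may be technical.

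Class 3 semaphorins are secreted guidance proteins, first known for steering growing axons. Most bind a neuropilin, which holds the ligand, and signal through a plexin, which carries the intracellular GTPase-activating domain. Neuropilins also bind VEGF family ligands, and plexin D1 is best known in the endothelium, where Sema3e can bind it without a neuropilin. In the liver, neuropilins are known from sinusoidal endothelium and from stellate cells, the vitamin A-storing pericytes of the sinusoid.

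Of the 7 ligand genes, 6 lie on 2 chromosomes (GENCODE M21 positions, GRCm38, the same assembly as mm10, counted from 1). Sema3d (chromosome 5, 12383385 to 12588948), Sema3a (13125414 to 13602565), Sema3e (14025276 to 14256689) and Sema3c (17574281 to 17730268) lie in that order on the plus strand of chromosome 5, with gaps of 536, 423 and 3318 kb. Genes outside the set that may lie in these gaps were not listed. Sema3b (chromosome 9, 107597674 to 107609229) and Sema3f (107681500 to 107710475) lie 72.3 kb apart on the minus strand. Sema3g lies on chromosome 14 (31217860 to 31230352), Nrp1 on chromosome 8 (128358604 to 128503363), Nrp2 on chromosome 1 (62703285 to 62818695) and Plxnd1 on chromosome 6 (115954811 to 115995005). No exon of these genes overlaps an exon of another annotated gene, apart from 0.818% of the exon length of Nrp1, which lies under the microRNA gene Mir1903 on the same strand.

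RefSeq promoter windows on GRCm38.p6, from 250 bases before to 50 bases after the start site, were found for 8 of the 10 genes, all but Sema3b and Sema3f. They differ widely in CpG content. Sema3a has 2 CpG dinucleotides and Sema3c 42, with Sema3d at 8, Sema3g at 8, Sema3e at 11, Nrp1 at 14, Plxnd1 at 23 and Nrp2 at 37; the median over all 32851 windows is 7. The RefSeq start of Sema3a lies 271370 bases inside the GENCODE gene, so its window belongs to an internal start. The RefSeq starts of Sema3c and Nrp1 lie 535 and 469 bases inside the GENCODE gene. Their windows thus lie wholly downstream of the GENCODE start. The stretches upstream of both the RefSeq and the GENCODE start are shown for the one member that passed the test below and for 2 receptors that stood close to it, because they contrast a window without GC boxes with windows that hold them. Capitals mark the GC box, GGGCGG on either strand; overlapping matches are joined.
Sema3d, plus strand, chr5:12382916-12383165
Sema3d: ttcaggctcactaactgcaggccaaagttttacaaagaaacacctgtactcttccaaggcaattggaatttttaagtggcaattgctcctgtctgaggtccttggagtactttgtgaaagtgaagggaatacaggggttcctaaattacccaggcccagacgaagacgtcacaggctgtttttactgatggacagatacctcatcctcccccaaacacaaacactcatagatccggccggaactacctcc
Nrp2, plus strand, chr1:62703067-62703284
Nrp2: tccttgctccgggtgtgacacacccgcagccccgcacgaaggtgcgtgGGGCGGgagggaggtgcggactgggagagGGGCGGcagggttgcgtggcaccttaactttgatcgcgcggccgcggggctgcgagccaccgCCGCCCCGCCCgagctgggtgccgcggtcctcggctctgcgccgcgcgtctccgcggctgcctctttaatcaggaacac
Plxnd1, minus strand, chr6:115995006-115995255
Plxnd1: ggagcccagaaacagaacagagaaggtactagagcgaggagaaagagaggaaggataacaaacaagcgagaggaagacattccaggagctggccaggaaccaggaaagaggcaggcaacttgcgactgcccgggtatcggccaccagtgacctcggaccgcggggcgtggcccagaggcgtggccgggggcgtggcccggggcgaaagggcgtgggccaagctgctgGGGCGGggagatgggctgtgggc
In the full windows, Sema3d and Sema3a held 0 GC boxes, Nrp1 and Sema3g 1, Plxnd1 and Sema3e 2, Sema3c 3 and Nrp2 5. The motif occurred in 6 of the 8 windows and in 35.7% of all windows. TATAAA occurred in 0 of the 8 and in 13.6% of all windows, and the CArG box, the element bound by serum response factor, in 0 of the 8 and in 1.63% of all. CACGTG was found in Sema3e alone (7.15% of all windows) and GGAATG in Plxnd1 alone (14.7%). All were searched on both strands. Sema3d, without a GC box, and Nrp2 and Plxnd1, with them, had log2 fold changes between the days of 1.77, 1.38 and 1.96, given with their errors below. In a second model, limma voom on recovered reads, they were 2.33, 2.32 and 2.47. A link between the motif and the change was not tested.

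Levels are given in TPM, a length-normalized transcript abundance with a fixed total per library. Reads recovered from the table numbered 21130197 to 22626885 per library at E16 and 14587544 to 18281942 at E18. At 1 TPM, each kb of exon corresponds to 6.48 to 6.83 reads at E16 and 4.41 to 5.53 at E18, so levels near 0 are coarse. Libraries of the sort held more than mesenchyme: hepatocyte markers summed to 4600 ± 3813 TPM at E16 and 746 ± 321 at E18, and erythroid markers to 5614 ± 707 and 15194 ± 4515 (SD, n = 3 each). Interstitial collagens, the matrix genes that mark fibroblast-like cells, summed to 446, 546 and 816 TPM at E16 and to 2891, 6117 and 2392 at E18. Tagln itself, whose promoter marked the cells, stood at 1.06 ± 0.408 TPM at E16 and 3.14 ± 0.258 at E18. In sorted bulk samples, fewer cells of a type and less RNA per cell cannot be told apart.

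The comparison of the days asked whether transcripts of the semaphorin system differ between E16 and E18 liver mesenchyme. Transcripts of 9 of the 10 genes, all but Sema3e, were higher in each E18 library than in any E16 library. By the same rule 18.4% of the 17824 genes tested, and 15.0% of the 29216 genes with a value above 0, were higher. Of the 8 genes that passed the filter on low values (at least 1 TPM in at least 3 libraries), the ligand gene Sema3d rose and the other 7 did not pass (limma on log2(TPM + 1), Benjamini-Hochberg adjusted p under 0.05 over all genes tested). Over all genes tested, 3.47% were called, 3.08% as higher and 0.387% as lower at E18. Only Sema3d and Nrp1 reached 1 TPM in all E16 libraries. The other 6 passed the filter through their E18 libraries, where they are high, so no count over the tested genes is support for a difference. The 8 fitted log2 fold changes are a description and ran from 0.89 to 2.19, against a median of 0.07 over all genes tested.

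**Figure D1:**
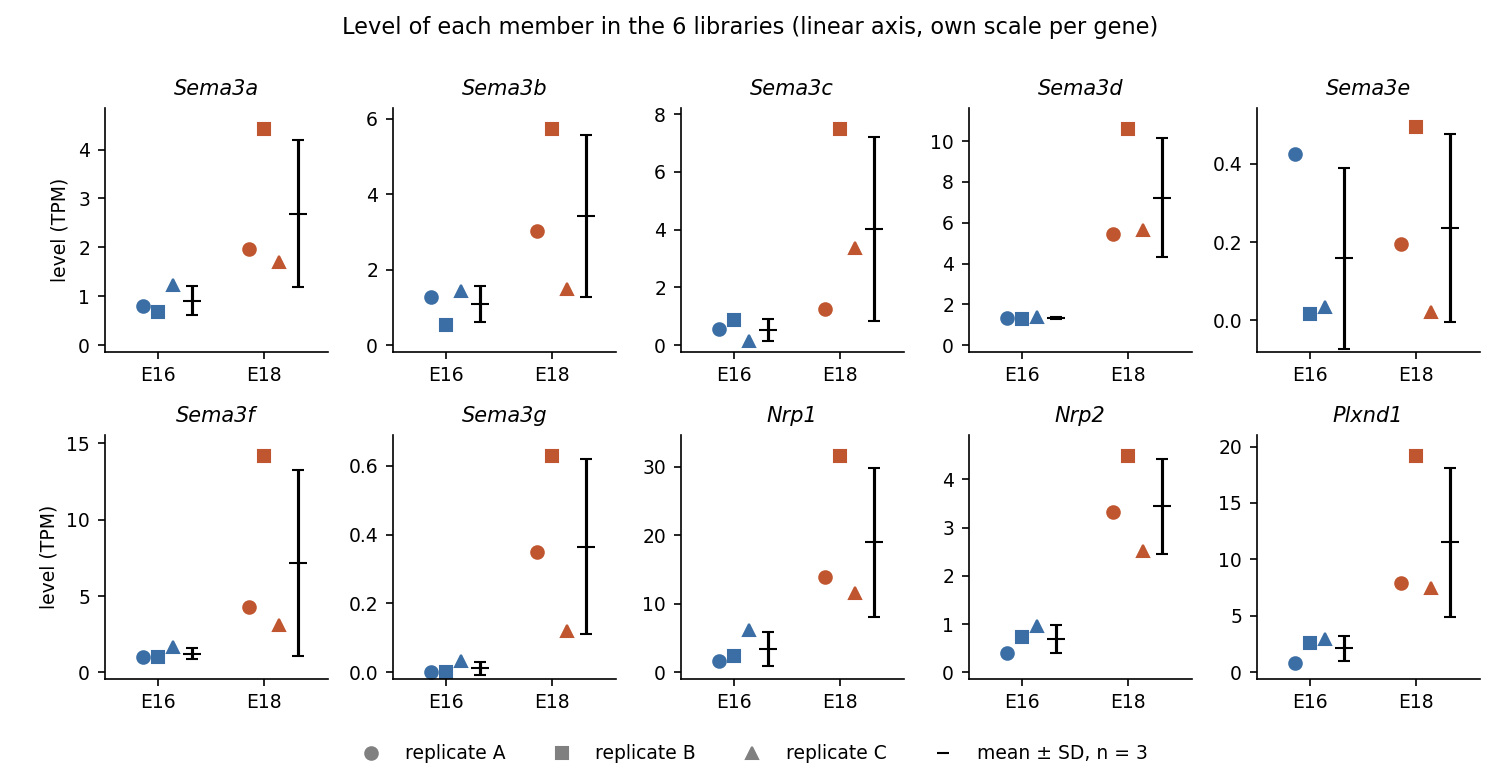
Level in TPM (vertical axis, linear, own scale per gene) of each of the 10 genes in the 3 E16 (blue) and 3 E18 (orange) libraries; circles, squares and triangles are replicates A, B and C, and black bars are the mean ± SD (n = 3). E18 replicate B is the highest library in all 10 panels, and the days overlap for Sema3e.

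Sema3d, a ligand known for guiding axons and vessels, was at 1.33, 1.30 and 1.37 TPM at E16 and at 5.46, 10.6 and 5.64 TPM at E18. The E16 libraries were nearly level and the lowest E18 library stood far above them. The mean went from 1.33 ± 0.0346 to 7.23 ± 2.91 TPM (SD, n = 3 each), with a fitted log2 fold change of 1.77 ± 0.33 (SE) and a limma adjusted p = 0.0418. These levels rest on 74 to 78 recovered reads per library at E16 and 207 to 416 at E18. The call was lost when any 1 of the 6 libraries was left out, at limma adjusted p of 0.0521 without E18 replicate C to 0.122 without E16 replicate A. The log2 fold change in those 6 fits stayed between 1.49 and 1.91. Over the whole table, limma called 618 genes with all libraries, 664 once E18 replicate C was dropped, 55 once E16 replicate B was dropped, and 0 after dropping any other single library (replicate A or C of E16, replicate A or B of E18), so the calls of other genes given below carry the same limit.

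Sema3f, which binds Nrp2 in preference to Nrp1, was the ligand nearest to Sema3d in level. It was at 0.986, 1.01 and 1.63 TPM at E16 and at 4.27, 14.1 and 3.10 TPM at E18. The days did not overlap, and E18 replicate B stood at 3.84 times the mean of the other two E18 libraries. The log2 fold change was 1.65 ± 0.52 (SE; limma adjusted p = 0.124). The fold of mean TPM was 5.92 with all libraries and 2.81 with both B libraries left out, and the log2 fold change without E18 replicate B was 1.08.

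Sema3c, which can signal through either neuropilin and is known from the cardiac outflow tract, was at 0.574, 0.886 and 0.130 TPM at E16 and at 1.24, 7.48 and 3.35 TPM at E18. The days did not overlap, but the 3 E18 libraries spread over a 6-fold range, and the E16 level in replicate C rests on 6 reads. The log2 fold change was 1.54 ± 0.52 (SE; limma adjusted p = 0.150). Sema3a, the founding ligand of the class, which acts mainly through Nrp1, was at 0.803, 0.673 and 1.24 TPM at E16 and at 1.96, 4.42 and 1.70 TPM at E18. E18 replicate B was again the highest and the days did not overlap; its log2 fold change was 0.89 ± 0.38 (SE; limma adjusted p = 0.235). Sema3b, which has been studied as a growth-restraining ligand in tumours, was at 1.29, 0.536 and 1.42 TPM at E16 and at 3.04, 5.72 and 1.48 TPM at E18. Here E18 replicate C and E16 replicate C nearly met, and the log2 fold change was 0.99 ± 0.44 (SE; limma adjusted p = 0.262). With both B libraries left out, the log2 fold change was 0.49 for Sema3a and 0.43 for Sema3b, and with E18 replicate B alone left out 0.58 and 0.63.

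Sema3g and Sema3e were close to the lower limit of measurement and were not tested. Sema3g, a ligand known from arterial endothelium, was listed at 0, 0 and 0.0340 TPM at E16, where 1 read was recovered in all, and at 0.349, 0.626 and 0.120 TPM at E18, from 7, 13 and 3 reads. Per read of depth, the pooled E18 reads came to 31.0 times the pooled E16 reads, with an exact 95% interval of 5.03 to 1277 that covers counting error only. Sema3e, the ligand that can bind plexin D1 directly, was at 0.426, 0.0162 and 0.0333 TPM at E16 and at 0.195, 0.495 and 0.0195 TPM at E18. Most of its reads came from 1 library a day, 27 of 30 from E16 replicate A and 21 of 30 from E18 replicate B. The fold of mean TPM was 1.49 with all libraries and 0.468 with both B libraries left out, so the direction for Sema3e turned with those libraries.

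Of the receptors, Nrp1 had the highest mean level of the 10 genes on both days. It was at 1.68, 2.32 and 6.19 TPM at E16 and at 13.9, 31.5 and 11.6 TPM at E18. E16 replicate C stood above the other E16 libraries and below each E18 library. The mean went from 3.40 ± 2.44 to 19.0 ± 10.9 TPM (SD, n = 3 each), with a fitted log2 fold change of 2.19 ± 0.50 (SE) and a limma adjusted p = 0.0586. The fold of mean TPM was 5.59, and 3.23 with both B libraries left out.

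Plxnd1, the plexin that Sema3e binds directly, followed Nrp1 in level. It was at 0.822, 2.62 and 2.92 TPM at E16 and at 7.94, 19.1 and 7.49 TPM at E18. The lowest E18 library stood well above the highest E16 library. The log2 fold change was 1.96 ± 0.47 (SE; limma adjusted p = 0.0650). Nrp2, the receptor preferred by Sema3f and Sema3g and also a receptor for VEGF-C, was at 0.396, 0.725 and 0.965 TPM at E16 and at 3.33, 4.47 and 2.52 TPM at E18. The days did not overlap, and of the 10 genes it had the smallest excess of E18 replicate B, 1.53 times the mean of the other two E18 libraries. The log2 fold change was 1.38 ± 0.33 (SE; limma adjusted p = 0.0646). On the log2(TPM + 1) scale all 3 receptors thus lay just outside the threshold.

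The model changed the calls. With limma voom on recovered reads, 4 of the 8 genes rose, Sema3d by 2.33 ± 0.37 (SE; adjusted p = 0.00840), Nrp2 by 2.32 ± 0.42 (adjusted p = 0.0120), Nrp1 by 2.54 ± 0.51 (adjusted p = 0.0167) and Plxnd1 by 2.47 ± 0.54 (adjusted p = 0.0217). A pseudocount of 0.1 in place of 1 gave fold changes of similar size for the receptors (2.52 for Nrp1, 2.19 for Nrp2 and 2.43 for Plxnd1, log2) but called none of these 3 (limma adjusted p = 0.0686, 0.0872 and 0.0802). Voom called 7.16% of the genes tested higher at E18. With limma array weights, which give less weight to libraries that vary more, Sema3d, Sema3f, Nrp1, Nrp2 and Plxnd1 passed, and 15.7% of all genes tested were called higher. Sema3a, Sema3b and Sema3c passed under none of the 18 alternatives run for them.

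**Figure D2:**
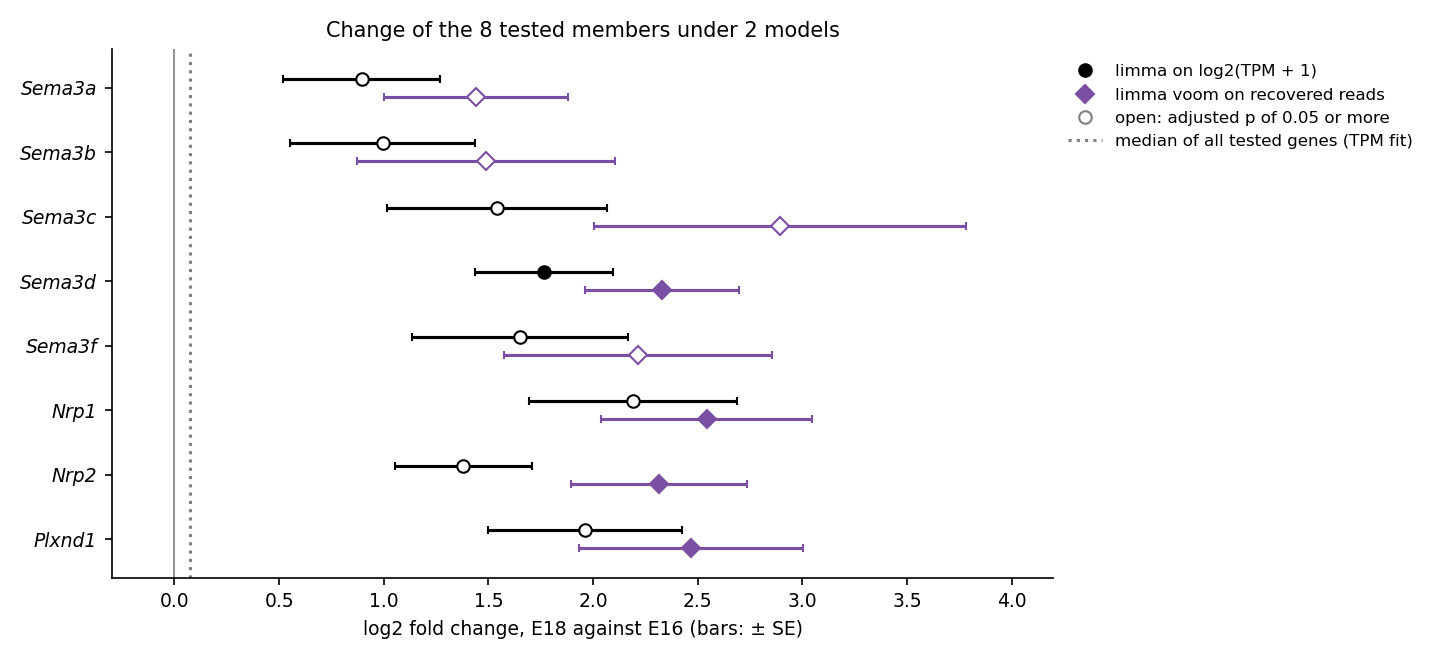
Log2 fold change of E18 against E16 (horizontal axis, ± SE) of the 8 tested genes by limma on log2(TPM + 1) (black circles) and by limma voom on recovered reads (purple diamonds); filled symbols have an adjusted p under 0.05, and the dotted line is the median of all genes tested, 0.07. Sema3d is filled in both fits, and Nrp1, Nrp2 and Plxnd1 only with voom.

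Nrp1, Plxnd1, Sema3d and Sema3f had the 4 highest mean levels, in that order, on both days, and the other genes changed rank. From high to low at E16 it was Nrp1, Plxnd1, Sema3d, Sema3f, Sema3b, Sema3a, Nrp2, Sema3c, Sema3e and Sema3g, and no pair of neighbours in that order was separated beyond the range of its libraries. At E18 it was Nrp1, Plxnd1, Sema3d, Sema3f, Sema3c, Nrp2, Sema3b, Sema3a, Sema3g and Sema3e. There the gap between Sema3a, at 1.70 TPM or more, and Sema3g, at 0.626 TPM or less, was the only one between neighbours that did not overlap. The 7 ligands together came to 5.23 ± 0.734 TPM at E16 and 25.1 ± 15.9 at E18, and the 3 receptors to 6.21 ± 3.62 and 33.9 ± 18.4 (SD, n = 3 each).

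The makeup of the ligand transcripts does not depend on how libraries are scaled. Sema3d and Sema3f had the largest mean shares on both days. Sema3d held 25.7% ± 3.16 of summed ligand TPM at E16 and 31.4% ± 6.32 at E18, and Sema3f 23.0% ± 4.83 and 26.2% ± 6.21 (SD, n = 3 each). Sema3a held 14.8%, 15.2% and 21.1% at E16 and 11.9%, 10.2% and 11.0% at E18. Its share was thus lower in each E18 library than in any E16 library (exact 2-sided permutation p = 0.1, the smallest that 3 against 3 libraries allow; 0.35 adjusted over the 7 ligands). Sema3g had the opposite pattern, with at most 0.581% at E16 and at least 0.776% at E18 (exact 2-sided permutation p = 0.1; adjusted p = 0.35), from the few reads given above. Shares of the other 5 ligands overlapped between the days.

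**Figure D3:**
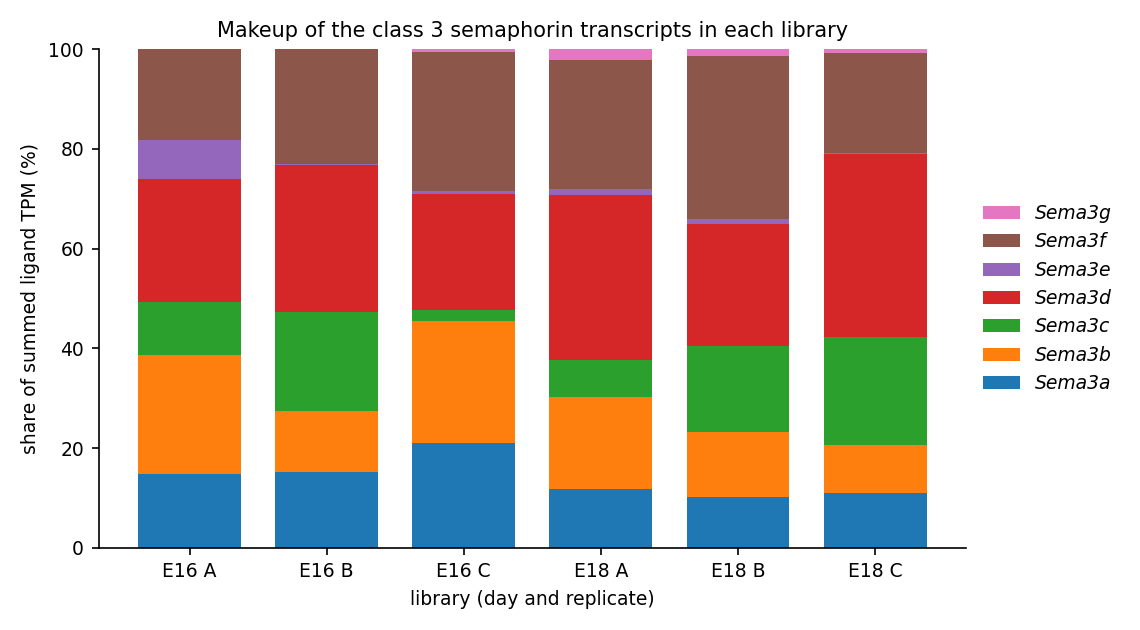
Share of each of the 7 class 3 semaphorin genes in their summed TPM (vertical axis, %) for each of the 6 libraries (horizontal axis). Sema3d and Sema3f make up much of each bar, and Sema3a is lower in each E18 library than in any E16 library.

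Within a library, Nrp1 exceeded Nrp2 on both days. The TPM ratio of Nrp1 to Nrp2 was 4.24, 3.21 and 6.41 at E16 and 4.17, 7.05 and 4.58 at E18. The ranges overlapped, and the log2 ratio on the TPM + 1 scale differed by 0.81 between the days (exact 2-sided permutation p = 0.3). That difference was 0.34 with a pseudocount of 0.1, 0.90 with a pseudocount of 5 and 0.56 with E18 replicate B left out. With a pseudocount of 5 the exact 2-sided permutation p was 0.1, the smallest that 3 against 3 libraries allow. Nrp2 was at 0.965 TPM or less at E16, so an added 1 or 5 lowers the ratio most there. Without a pseudocount the TPM ratios averaged 4.62 ± 1.64 at E16 and 5.27 ± 1.56 at E18 (SD, n = 3 each). The separation with a pseudocount of 5 is thus not a difference of the TPM ratios. Plxnd1 stood at 0.491, 1.13 and 0.472 times the TPM of Nrp1 at E16 and at 0.573, 0.607 and 0.648 times at E18 (exact 2-sided permutation p = 0.7 on the log2 ratio). The TPM ratio of Plxnd1 to Nrp2 was 2.08, 3.61 and 3.02 at E16 and 2.39, 4.28 and 2.97 at E18, so the days overlapped. On the TPM + 1 scale its log2 ratio differed by 0.58 between the days (exact 2-sided permutation p = 0.2). A change of proportion among the receptors was not detectable with 3 libraries a day, where p cannot fall below 0.1.

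E18 replicate B was the highest of the 6 libraries for each of the 10 genes, at 1.53 to 4.61 times the mean of the other two E18 libraries. The same library was highest for summed interstitial collagens (6117 TPM against 2891 and 2392 in the other two), for hepatic stellate cell and pericyte markers (319 against 124 and 101) and for mesothelial markers (114 against 63.8 and 67.3). It was also highest for other plexins (189 against 94.6 and 95.1) and class 4 to 7 semaphorins (206 against 125 and 117). The same held for the sums of co-receptors and effectors, convertases, VEGF genes, smooth muscle genes and macrophage markers. It did not hold for hepatocyte, erythroid, megakaryocyte or summed endothelial markers. The share of all genes that were highest in this library was not computed. Between the days, all 8 interstitial collagen genes rose, with a median log2 fold change of 2.63 and Col1a1 and Col3a1 as the most abundant. Of 8 smooth muscle contractile genes 6 rose, Acta2 and Actg2 among them, with a list median of 2.50. Of 8 stellate and pericyte markers 4 rose, with a list median of 2.13; Pdgfrb was one of them, and Reln was at 11.9 ± 2.68 and 33.9 ± 25.1 TPM (SD, n = 3; limma adjusted p = 0.182). Of 6 mesothelial markers 3 rose, Upk3b and Msln among them, with a list median of 1.68. These are limma calls at adjusted p under 0.05, which 3.08% of all genes tested passed as higher. Each E18 library was above every E16 library for all 8 collagen, 8 smooth muscle, 8 stellate and pericyte and 6 mesothelial genes. By that rule 18.4% of all genes tested were higher. Set against interstitial collagens, the 3 receptors came to 0.650%, 1.04% and 1.23% of the collagen TPM at E16 and to 0.870%, 0.901% and 0.902% at E18, so the E18 libraries lay inside the E16 range. The 7 ligands came to 1.21%, 0.810% and 0.717% at E16 and 0.571%, 0.711% and 0.644% at E18. Per TPM of collagen, the ligands were lower in each E18 library than in any E16 library, by a gap of 0.711% to 0.717%. The picture depended on the list. Per stellate and pericyte markers both overlapped between the days, with ligands at 14.3% to 27.9% and then 13.3% to 15.3%, and receptors at 15.0% to 24.6% and then 17.3% to 21.4%. Per mesothelial markers both overlapped as well, with mean ligand values of 27.9% and 29.0% and mean receptor values of 32.5% and 39.9%. Per smooth muscle contractile genes both were lower in each E18 library, with ligands at 10.8% to 26.5% and then 6.03% to 10.6%, and receptors at 14.2% to 23.0% and then 9.18% to 13.4%. Per endothelial markers, Egfl7 included, both were higher, with mean ligand values of 14.8% and 90.5% and mean receptor values of 16.2% and 122.7%. Most of that endothelial sum was Egfl7, which was lower at E18. Without Egfl7 the endothelial sum, of which Esam and Tek were the largest parts, had means 4.48-fold apart, higher at E18. The ligands had means 4.81-fold and the receptors 5.46-fold apart, also higher at E18. These ratios were computed after the levels were seen and were not tested, and the part of the marker levels in the results was not tested.

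Endothelial cells are a known source of Nrp1, Nrp2, Plxnd1 and Sema3g. Summed over 12 endothelial markers, TPM was 27.8, 41.1 and 41.2 at E16 and 25.3, 28.8 and 27.9 at E18, but most of that sum was Egfl7, at 34.3 ± 7.08 and 16.9 ± 5.14 TPM (SD, n = 3; limma adjusted p = 0.0769). The other 11 markers all had a higher mean at E18, and summed without Egfl7 they came to 1.54, 1.83 and 3.63 TPM at E16 and 9.82, 16.3 and 5.33 TPM at E18, a sum chosen after the values were seen. Their summed level was thus higher in each E18 library than in any E16 library, highest in E18 replicate B, with means 4.48-fold apart, beside 5.46-fold for the 3 receptors together. Esam and Tek were the largest parts of that sum, with means of 0.588 and 0.506 TPM at E16 and 4.84 and 2.01 TPM at E18. The fold of the sum thus leans on these genes, and others rest on few reads, such as Cdh5 at 0 to 5 per library. Taken singly, 2 of these 11 markers had each E18 library above every E16 library. The same held for 15.0% of all genes with a value above 0. Esam, a junction protein of endothelium and platelets, was at 0.204, 0.0525 and 1.51 TPM at E16 and at 5.69, 6.87 and 1.96 TPM at E18 (limma adjusted p = 0.0915). Tek, the angiopoietin receptor, averaged 0.506 ± 0.289 and 2.01 ± 2.01 TPM, Pecam1 0.487 ± 0.353 and 0.839 ± 0.361 TPM, and Cdh5 was listed at 0 in the 3 E16 libraries and at 0.270, 0.260 and 0 TPM at E18. Egfl7 and Esam alone passed the filter and 0 were called. With limma array weights, Esam was called higher (adjusted p = 0.0251) and Egfl7 lower (adjusted p = 0.00543), where 15.7% of all genes tested were called higher. At an unadjusted limma p under 0.05 both passed, in opposite directions, and voom called Egfl7 lower. At that unadjusted p, 15.2% of all genes tested were higher at E18. The part of endothelial RNA in the receptor and Sema3g levels was not tested. Of 10 neuronal and Schwann cell markers, cells that respond to semaphorins along nerves, 3 passed the filter and 0 were called (at an unadjusted limma p under 0.05, S100b passed; 0 by voom or array weights). The list summed to 2.88 to 5.63 TPM at E16 and 4.43 to 15.1 at E18, highest in E18 replicate B. Of 4 megakaryocyte markers tested limma called 0 (1 at an unadjusted p under 0.05, 0 by voom, 1 with array weights), and of 2 macrophage markers tested 0 by any of these.

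**Figure D4:**
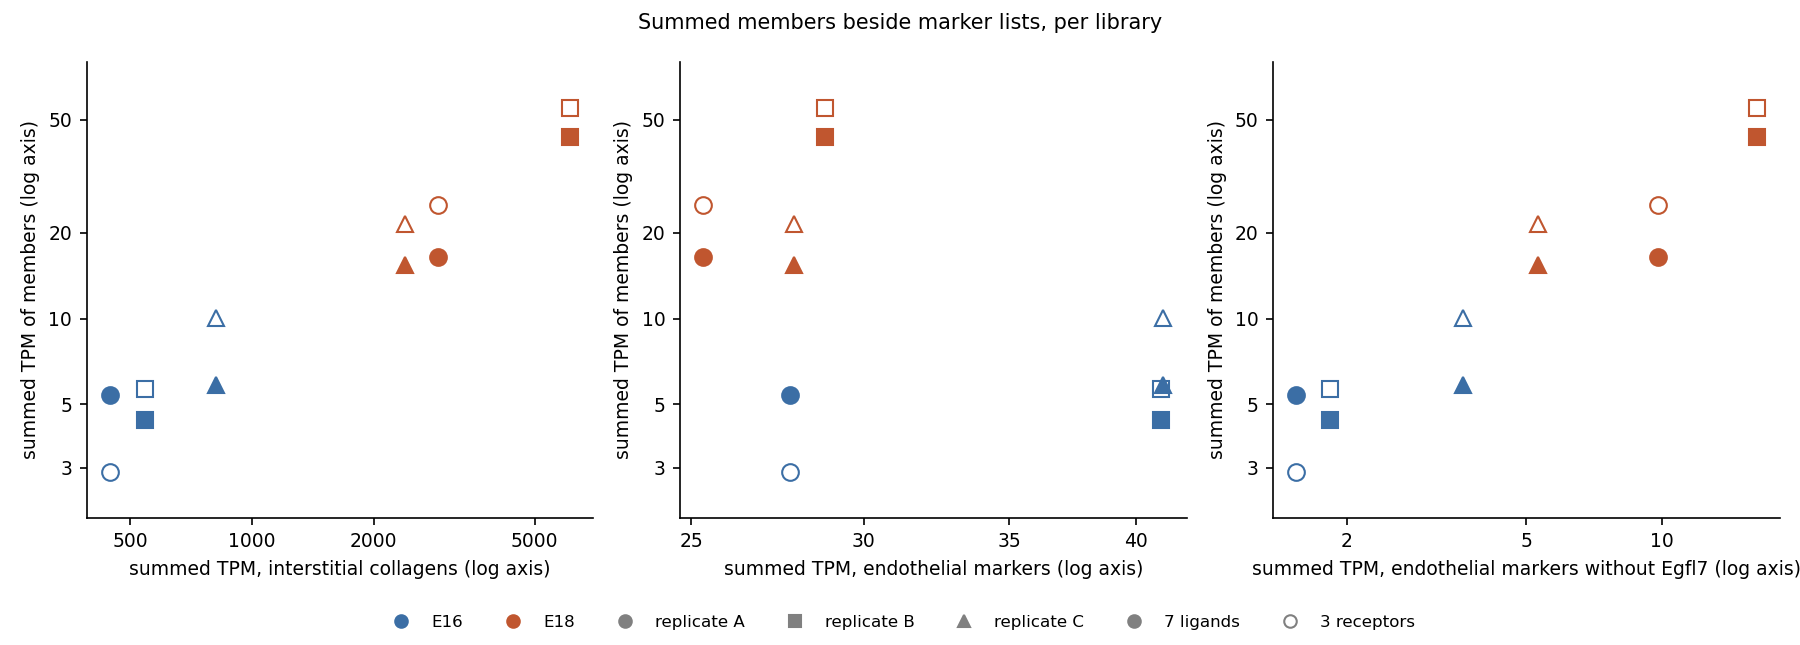
Summed TPM of the 7 ligands (filled) and the 3 receptors (open) on the vertical log axis against summed TPM of interstitial collagens (left), of 12 endothelial markers (middle) and of the same markers without Egfl7 (right) on horizontal log axes; each symbol is 1 library, blue for E16, orange for E18, and circles, squares and triangles are replicates A, B and C. The left panel shows members and collagens high together in E18 replicate B, and the endothelial sum is 25.3 to 28.8 TPM at E18 beside 27.8 to 41.2 at E16 with Egfl7, and 5.33 to 16.3 beside 1.54 to 3.63 without it.

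Other genes of the pathway had fold changes of both signs. Of 8 further plexins, the usual signalling partners of neuropilins, 7 were tested and 0 were called, with 4 positive and 3 negative log2 fold changes and a median of 0.28 (at an unadjusted limma p under 0.05, 2 were higher and 1 lower; voom called 2 higher, and array weights 2 higher and 2 lower). Among all 17824 genes tested, 15.2% were higher at that unadjusted p, 7.16% by voom and 15.7% with array weights. Voom called 171 genes lower and array weights 1521. Plxna4, a partner for Sema3a signalling, averaged 2.20 ± 0.641 and then 7.81 ± 3.75 TPM (SD, n = 3; limma adjusted p = 0.0830), and Plxnb2, a receptor of class 4 semaphorins, averaged 16.4 ± 5.52 and 50.8 ± 31.3 TPM (limma adjusted p = 0.104). Plxna1, the most abundant of them, stood at 37.5, 40.7 and 39.5 TPM at E16 and at 27.7, 43.8 and 32.6 TPM at E18. The level of Plxna1 thus overlapped between the days (log2 fold change −0.20 ± 0.18), and it exceeded Nrp1 and Plxnd1 in each of the 6 libraries.

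Among 13 membrane-bound semaphorins of classes 4 to 7, 11 were tested. Sema5a, a transmembrane semaphorin with thrombospondin repeats, rose from 2.05 ± 1.11 to 15.0 ± 9.20 TPM (SD, n = 3), with a fitted log2 fold change of 2.31 ± 0.45 (SE) and a limma adjusted p = 0.0452. Sema6c, a transmembrane semaphorin of class 6, was at 1.97 ± 1.07 and 14.4 ± 9.05 TPM (limma adjusted p = 0.0507). The list had 7 positive and 4 negative log2 fold changes and a median of 1.49. At an unadjusted limma p under 0.05, 6 were higher and 2 lower. Voom called 6 higher and 1 lower, and array weights 5 higher and 3 lower, beside the shares over all genes given above. Sema4d, a ligand of B-type plexins, was at 31.3, 27.8 and 35.7 TPM at E16 and at 18.3, 19.9 and 20.2 TPM at E18. All E18 libraries were below all E16 libraries for Sema4d (log2 fold change −0.66 ± 0.15; limma adjusted p = 0.0602). By the same rule 8.05% of the genes tested were lower at E18.

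Of 21 co-receptors and intracellular effectors, 12 were tested and Dpysl3, which codes for a collapsin response mediator protein, rose, from 1.80 ± 0.811 to 13.6 ± 4.05 TPM (log2 fold change 2.39 ± 0.34; limma adjusted p = 0.0314). Mical2, an actin-oxidizing enzyme of the family that acts downstream of plexins, was at 1.65 ± 0.656 and 7.94 ± 4.45 TPM (limma adjusted p = 0.0718). The list's median log2 fold change was 0.73, with 11 of 12 positive. At an unadjusted limma p under 0.05, 6 were higher, by voom 4 and with array weights 5, and 0 were lower by any of these. Furin and Pcsk7, convertases of the group that cleaves class 3 semaphorins, were at 9.17 ± 2.62 and 15.2 ± 4.19 TPM and at 19.1 ± 1.72 and 25.4 ± 3.55 TPM (adjusted p by limma 0.251 and 0.245); of the 4 convertases tested limma called 0, with 0 at an unadjusted p under 0.05, 0 by voom and 2 with array weights. Of 8 genes for VEGF ligands and receptors, 7 were tested and Vegfd rose from 5.27 ± 2.76 to 40.5 ± 14.2 TPM (log2 fold change 2.78 ± 0.40; limma adjusted p = 0.0314), while Flt1 was at 0.181 ± 0.156 and 1.57 ± 0.687 TPM (limma adjusted p = 0.115). Kdr, the VEGF receptor that pairs with neuropilins in endothelium, was at 0.245 ± 0.0942 and 0.317 ± 0.205 TPM, under the filter. Of the 7 VEGF genes tested, 4 were higher at an unadjusted limma p under 0.05, 2 by voom and 3 with array weights, and 0 were lower.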

How the data were processed

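RNA of eYFP-positive liver cells was sequenced in 6 libraries, 3 a day, from total RNA with a stranded total RNA kit, per the labels' protocols. The table the authors deposited holds TPM. HISAT2 2.1.0, HTSeq 0.5.4p3, Bowtie, FastQC 0.11.7 and the build mm10 are listed, with no role stated, per the submitters' processing notes; how TPM was computed, the annotation release and the strand setting are not given there. Symbols came from a table of Ensembl identifiers, which matched 54409 of 54532 identifiers. Multiplied by the summed GENCODE M21 exon length, 96.8% to 97.1% of the TPM above 0 were whole multiples of 1 step per library within 0.05 of a read, which gave the recovered reads.

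Genes of at least 1 TPM in at least 3 libraries were fitted on log2(TPM + 1) with limma 3.58.1 (R 4.3.3), letting the prior variance follow a trend in intensity, and 2-sided p-values were adjusted by Benjamini-Hochberg over 17824 genes. The fit was tested on simulated data. Shares and ratios within libraries were compared by exact 2-sided permutation (SciPy 1.17.1). Alternatives were pseudocounts of 0.1 and 5, other filters and scalings, no trend, array weights, voom, the letter as a block, and leaving out each library or both B libraries. The members and the 17 gene lists were chosen with earlier results of these data known. From other pathway lists the called genes and the 2 with the smallest p are named, and from marker lists the 2 most abundant, except where a result is not reported here; Plxna1, Sema4d, Kdr, Cdh5, Pecam1, Tek, S100b and Tagln were named after their values were seen. Motifs were chosen after the values were seen. Figures were drawn with Matplotlib 3.10.9.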

Additional observations from a re-analysis of the deposited data

How the results depend on the processing

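All log2 fold changes of the 8 tested genes were positive under each alternative that tested them. Quantile normalization moved the median of all genes tested from 0.07 to −0.08 (log2), a larger shift than any other scaling gave. The count of these genes called, 1 as reported, was 1 with a pseudocount of 0.1, median-of-ratios scaling and scaling without hepatocyte and erythroid lists. It was 0 with a pseudocount of 5, with no filter, with a filter of 5 TPM (3 genes tested), with quantile normalization, with the replicate block and without both B libraries. It was 2 with no intensity trend, 3 with scaling without Gm26917, mitochondrial and small RNA genes, 4 with voom and 5 with array weights. Leaving out each library in turn gave 0 to 0. Sema3d kept its call in 7 of 19 alternatives, with adjusted p from 0.00597 to 0.159. Calls over all genes, 618 as reported (549 higher, 69 lower), were 347 with a pseudocount of 5, 0 with no filter, 406 with a filter of 5 TPM, 399 with quantile normalization (314 higher, 85 lower), 1069 with scaling without Gm26917, mitochondrial and small RNA genes (818 higher, 251 lower), 4316 with array weights, 1448 with voom, 0 with the replicate block, 0 without both B libraries and 0 to 664 with each library left out in turn. The cause was not tested. Same-lettered libraries did not deviate together (correlation of deviations 0.10, −0.14 and −0.12 for A, B and C), and the labels do not say whether the letters pair the days. Without both B libraries, the median of the other plexins turned to −0.11 and that of the neuronal and Schwann cell markers to −0.36. With each library left out in turn, the Sema3e share of ligand TPM differed by −3.41 to 0.348 points (−2.12 with all; the sign turned without E16 replicate A), and that of Sema3f by −0.0278 to 6.18 points (3.15 with all; the sign turned without E18 replicate B). The summed endothelial markers differed by −9.34 TPM, and by 8.13 without Egfl7. Levels below about 1 TPM are limited by reads.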
